A study of Mus musculus with 8 samples.

Results

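The hypoxia-inducible factor (HIF) pathway was examined through 10 genes: its subunits and regulators Hif1a, Arnt, Vhl, Egln1 and Egln3, and the hypoxia-induced genes outside glycolysis Bnip3, Bnip3l, P4ha1, Vegfa and Ankrd37. They were chosen by name, with earlier results of these data known, and each matched a gene ID among the 21859 of the count table. RNA was sequenced and counted per gene in 8 cultures of the PER-M60 line, which is described as leukaemia cells of the mouse. Of these, 4 cultures were grown in control medium and 4 in medium conditioned by osteoclasts, the cells that resorb bone. No genotype, transgene or drug is named for either group, and all cultures come from the same line, so the results describe that line alone. The time in medium, the oxygen and glucose of the cultures and the way the osteoclasts were made were not given in the sources used here.

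HIF is a transcription factor made of an oxygen-regulated alpha subunit, such as the product of Hif1a, and the constitutive partner ARNT. When oxygen is present, prolyl hydroxylases of the EGLN family modify the alpha subunit, and the VHL ubiquitin ligase then binds it and sends it for degradation. When oxygen is scarce the alpha subunit accumulates and activates genes for glycolysis, mitophagy (removal of mitochondria), collagen modification and blood vessel growth. Control of the alpha subunit is largely at the protein level, and transcript counts do not measure that protein. Bone marrow, where such leukaemias grow, is a low-oxygen tissue.

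Total counts ran from 15391754 to 21637966 per culture, so the detection floor, taken as 3 counts, was 0.139 to 0.195 CPM (the unit in which counts are divided by the size of the library). B-lineage genes marked the line: their 12 markers summed to between 4105 and 4130 CPM in control medium and between 4305 and 4326 CPM in conditioned medium, with Rag1 and Rag2 at 0. Of 12 osteoclast markers, 9 had a mean under 1 CPM, among them Ctsk (0.103 and 0.127 CPM in control and conditioned medium), and Dcstamp and Ocstamp were at 0. The osteoclast sum was 128 to 135 CPM in control and 139 to 145 CPM in conditioned medium, most of it Nfatc1 and Acp5, and its part in the results was not tested. Within it Nfatc1 rose from 95.6 to 106 CPM (edgeR adjusted p = 0.000806), Itgb3 fell from 12.9 to 10.7 CPM (adjusted p = 0.0185), and Acp5 was not called. Macrophage markers (5 of 10 at 0) summed to 20.7 to 22.1 CPM in control and 21.2 to 25.2 CPM in conditioned medium. Among them Lyz2 was higher in conditioned medium (4.46 and 5.91 CPM, edgeR adjusted p = 0.0119). Of the merged exons of Itgam, listed at 0, 68.7% overlap Gm49368, so its 0 is uncertain. T-lineage markers (3 of 8 at 0) summed to 133 to 134 and 134 to 137 CPM in the respective media, nearly all of it Lck. Stromal markers (4 of 10 at 0) summed to 291 to 296 and 304 to 317 CPM. Nearly all of that was Alpl (282 and 299 CPM, edgeR adjusted p = 0.0155). The labels name no batch, and do not say whether the cultures were started separately, so p-values measure the spread between these cultures.

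In osteoclast-conditioned medium, transcripts of the mitophagy receptors Bnip3 and Bnip3l and of the prolyl hydroxylase Egln3 fell by 20.1 to 31.8%, and the collagen hydroxylase P4ha1 was lower by a smaller amount. Vegfa was higher. The transcription factor subunits Hif1a and Arnt and the ubiquitin ligase gene Vhl did not pass the test, nor did Egln1 and Ankrd37. All 10 genes passed the filter on low counts. Calls were made with edgeR's quasi-likelihood test at a threshold of 0.05, with p-values adjusted by Benjamini-Hochberg over the whole set of 10729 tested genes; 4 of the 10 were called lower and 1 higher. The same test called 30.5% of all tested genes, 14.8% lower and 15.7% higher, so calls were common across the transcriptome. Of the calls over all genes, 51.6% were higher, and 40.7% when libraries were scaled by their totals only. The median log2 fold change was -0.12 over the 10 genes and -0.01 over all tested genes.

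**Figure D1:**
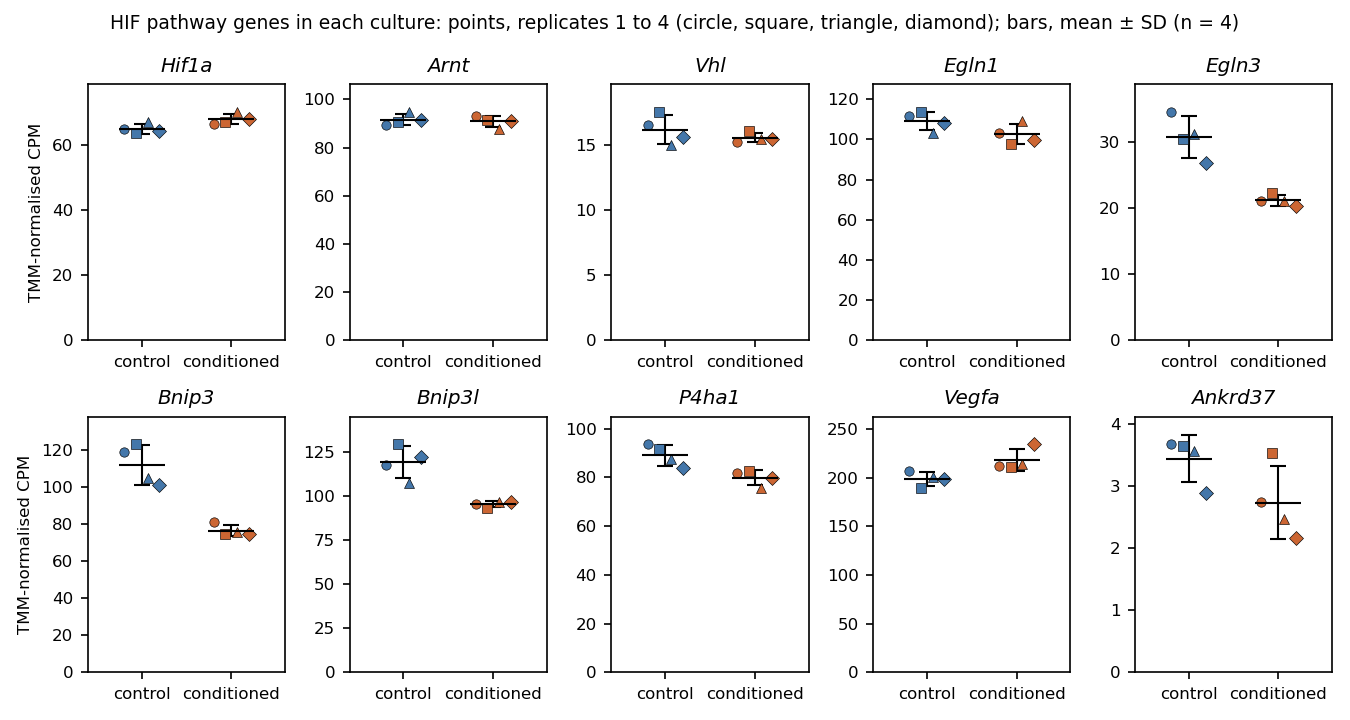
Normalised CPM (vertical axes, from 0) of the 10 HIF pathway genes in 4 control (blue) and 4 osteoclast-conditioned (orange) cultures; marker shape gives the replicate, and bars the mean ± SD. Conditioned cultures lie below every control culture for Egln3, Bnip3, Bnip3l and P4ha1 and above every control culture for Vegfa, while the groups overlap in the other 5 genes.

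The first question was whether the genes of the transcription factor itself differed. Hif1a (ENSMUSG00000021109; chromosome 12, 73901375 to 73947530, GRCm38) encodes the oxygen-regulated alpha subunit. Its level was 64.7, 63.6, 67.0 and 64.0 normalised CPM in control replicates 1 to 4 and 66.3, 67.0, 70.1 and 67.9 in conditioned replicates 1 to 4. The highest control culture reached into the conditioned range, and the log2 fold change of 0.07 (SE 0.04) had an edgeR adjusted p of 0.177. Its 95% interval allowed between 0.994-fold and 1.103-fold. Of its merged exons, 2.51% are shared with Gm49321.

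Arnt (ENSMUSG00000015522; chromosome 3, 95434388 to 95497240) encodes the partner subunit. It had 89.4, 90.5, 94.8 and 91.6 normalised CPM in control and 93.3, 91.4, 87.6 and 91.2 in conditioned medium, with the groups overlapping. On the log2 scale the difference was -0.01 (SE 0.03, edgeR adjusted p = 0.838), and its interval ran from 0.946-fold to 1.04-fold. The other alpha subunits were close to the detection floor: Epas1 had 1 to 12 counts per culture and Hif3a 1 to 7. The second partner gene, Arnt2, had 0 to 2 counts. A difference in these 3 genes was not detectable at this depth.

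Of the oxygen sensor genes, Egln3 was called and Egln1 was not. Egln3 (ENSMUSG00000035105; chromosome 12, 54178981 to 54203860) encodes PHD3, a hydroxylase that is itself a well-known HIF target. It had 34.6, 30.6, 31.3 and 26.9 normalised CPM in control and 21.2, 22.3, 21.2 and 20.3 in conditioned medium. Every conditioned culture was below every control culture. The mean fell from 30.8 ± 3.19 to 21.2 ± 0.834 (SD, n = 4 each). With a log2 fold change of -0.54 (SE 0.06) and an edgeR adjusted p of 1.82e-07, Egln3 had the smallest p of the 10 genes.

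Egln1 (ENSMUSG00000031987; chromosome 8, 124908587 to 124949324) encodes PHD2, regarded as the main hydroxylase of the alpha subunit in most cells. It had 112, 114, 103 and 108 normalised CPM in control and 103, 97.7, 109 and 99.9 in conditioned medium. Conditioned replicates 1 and 3 lay inside the control range. The log2 fold change of -0.09 (SE 0.04) had an edgeR adjusted p of 0.0591, so Egln1 was not called. Its call depended on the setting: it passed when libraries were scaled by totals only (adjusted p = 0.0200) or by the upper quartile (0.0354), with no filter (0.0487), and without control replicate 3 (0.0229) or conditioned replicate 3 (0.0196).

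Vhl (ENSMUSG00000033933; chromosome 6, 113623959 to 113631633) encodes the substrate receptor of the ubiquitin ligase. It was the scarcest of the regulators, with 16.6, 17.6, 15.0 and 15.6 normalised CPM in control and 15.3, 16.1, 15.5 and 15.5 in conditioned medium. All conditioned cultures were inside the control range. Its log2 fold change was -0.06 (SE 0.07, edgeR adjusted p = 0.509), with an interval of 0.871-fold to 1.05-fold. In simulated counts the test recovered 30% of genes changed 1.1-fold and 71.4% of those changed 1.2-fold. Far fewer genes were changed there than were called here, which makes the adjusted threshold stricter in the simulation. These shares therefore do not say how often changes of the size estimated for Hif1a, Arnt and Vhl are missed here. The intervals of these genes still allow small changes.

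Of the 5 hypoxia-induced genes among the 10, Bnip3 had the largest log2 fold change in size. Bnip3 (ENSMUSG00000078566; chromosome 7, 138890836 to 138909519) encodes an outer-membrane protein of mitochondria that recruits the autophagy machinery. Control cultures had 119, 123, 105 and 101 normalised CPM and conditioned cultures 81.0, 74.6, 75.8 and 74.9. The groups were well separated, although control replicates 3 and 4 were lower than 1 and 2. The mean went from 112 ± 10.7 to 76.6 ± 3.01 (SD, n = 4 each). This is a log2 fold change of -0.55 (SE 0.06) with an edgeR adjusted p of 3.71e-05. It ranked 104 from the most negative log2 fold change among the 10729 tested genes.

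Its paralogue Bnip3l (also called Nix; ENSMUSG00000022051; chromosome 14, 66985239 to 67008877) also acts as a mitophagy receptor and is best known for clearing mitochondria from maturing red cells. It had 118, 129.5, 108 and 122 normalised CPM in control and 95.6, 93.2, 96.7 and 96.5 in conditioned medium. Again no conditioned culture reached the lowest control culture. Bnip3l fell by 0.32 on the log2 scale (SE 0.04, edgeR adjusted p = 2.91e-06).

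P4ha1 (ENSMUSG00000019916; chromosome 10, 59323296 to 59373304) encodes a catalytic subunit of collagen prolyl 4-hydroxylase. Its 93.7, 91.5, 87.5 and 83.9 normalised CPM in control compare with 81.7, 82.7, 75.8 and 79.6 in conditioned medium. The groups were separate but close, with conditioned replicate 2 just under control replicate 4. P4ha1 fell by 0.16 on the log2 scale (SE 0.04, edgeR adjusted p = 0.00197).

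Ankrd37 (ENSMUSG00000050914; chromosome 8, 45996902 to 46005707), an ankyrin repeat gene known to be induced by hypoxia, was scarce, with 37 to 79 counts per culture. It had 3.67, 3.64, 3.56 and 2.88 normalised CPM in control and 2.75, 3.53, 2.47 and 2.16 in conditioned medium. Of the conditioned cultures, 3 were below every control culture and replicate 2 was not. The log2 fold change of -0.34 (SE 0.15) was not called (edgeR adjusted p = 0.0963), but without conditioned replicate 2 it was -0.48 with an adjusted p of 0.0302. As 26.4% of its merged exons overlap Ufsp2 or Lrp2bp, its counts are uncertain.

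Vegfa (ENSMUSG00000023951; chromosome 17, 46016993 to 46032369) encodes the secreted factor that drives blood vessel growth, and it was the gene called in the other direction. It had 207, 189, 201 and 199 normalised CPM in control and 212, 211, 214 and 234 in conditioned medium. Every conditioned culture was above every control culture, by a small margin in replicates 1 to 3. The mean rose from 199 ± 7.25 to 218 ± 11.1 (SD, n = 4 each), or by 0.13 on the log2 scale (SE 0.03, edgeR adjusted p = 0.00396). Without conditioned replicate 4, the highest culture, the log2 fold change was 0.10 (adjusted p = 0.0209). The samples of the media did not overlap in 5 of the 10 genes, Egln3, Bnip3, Bnip3l, P4ha1 and Vegfa, against 28.2% of all tested genes. In bulk RNA, fewer cells with a transcript and less of it per cell cannot be told apart.

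**Figure D2:**
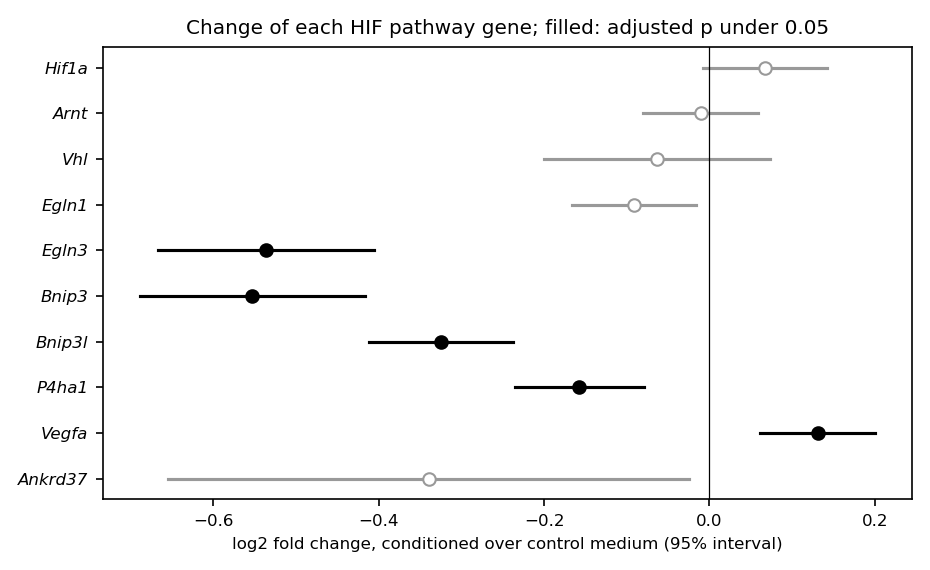
Log2 fold change of each HIF pathway gene in osteoclast-conditioned over control medium (horizontal axis), with its 95% interval; filled points have an edgeR adjusted p under 0.05. The called genes run from -0.55 for Bnip3 to 0.13 for Vegfa, and the points for Hif1a, Arnt and Vhl lie near 0.

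Because HIF binds a short core sequence, ACGTG or GCGTG, the stretch before the start of the called genes is shown. Sequences are from RefSeq on GRCm38.p6, given 5′ to 3′ on the gene's strand, and end where the annotated exons begin; capitals mark each ACGTG or GCGTG on either strand, and a CACGTG holds ACGTG on both strands. Windows were found for 9 of the 10 genes; Bnip3l had none.
Egln3 (chr12:54203875-54204124, minus strand): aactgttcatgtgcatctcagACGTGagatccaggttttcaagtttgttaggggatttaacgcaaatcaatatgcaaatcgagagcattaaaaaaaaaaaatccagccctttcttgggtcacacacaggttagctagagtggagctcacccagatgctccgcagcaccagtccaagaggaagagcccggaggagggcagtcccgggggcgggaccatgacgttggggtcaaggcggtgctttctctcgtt
Bnip3 (chr7:138909520-138909756, minus strand): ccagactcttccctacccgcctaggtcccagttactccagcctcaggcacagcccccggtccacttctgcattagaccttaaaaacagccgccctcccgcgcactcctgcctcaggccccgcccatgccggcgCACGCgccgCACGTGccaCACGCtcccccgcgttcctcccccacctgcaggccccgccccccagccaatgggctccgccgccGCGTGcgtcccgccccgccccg
P4ha1 (chr10:59323046-59323295, plus strand): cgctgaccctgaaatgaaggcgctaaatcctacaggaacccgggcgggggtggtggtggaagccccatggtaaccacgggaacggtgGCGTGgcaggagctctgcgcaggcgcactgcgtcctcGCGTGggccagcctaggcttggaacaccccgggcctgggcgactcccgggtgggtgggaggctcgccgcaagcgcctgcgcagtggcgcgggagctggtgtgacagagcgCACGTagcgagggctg
Vegfa (chr17:46032378-46032627, minus strand): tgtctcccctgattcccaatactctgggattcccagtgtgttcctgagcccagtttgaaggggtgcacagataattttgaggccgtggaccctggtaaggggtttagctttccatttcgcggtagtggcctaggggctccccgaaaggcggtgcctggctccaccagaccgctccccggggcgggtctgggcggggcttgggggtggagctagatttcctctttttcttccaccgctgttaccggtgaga

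Bnip3 held the most matches in the 250 bases before its start, with 2 of ACGTG and 3 of GCGTG, grouped between -117 and -99 apart from 1 at -35 (first base of the match, counted back from the start site). P4ha1 held 1 ACGTG at -16 and 2 GCGTG, Egln3 held 1 ACGTG at -229, and Vegfa held no match in the window shown. Matches also stood before genes that were not called: 3 in Hif1a, 1 in Arnt, 2 in Egln1 and 4 in Ankrd37, while Vhl had none. The counts are over the whole window, and the ACGTG at -68 in Egln1 and at -6 in Ankrd37 lie in annotated exons. Of the 10 windows of these 9 genes, 8 held either sequence; Vegfa has a second start, and that window, which lies mostly in annotated exons, held 2 matches. Among 32851 promoter windows of the same length, 38.6% held either sequence, 16.6% ACGTG and 28.2% GCGTG. A match is a string of letters, not a measured binding site.

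Levels were compared between genes as normalised CPM per kilobase of merged exons. In control medium Bnip3 (49.5 ± 4.74) and Vegfa (46.4 ± 1.69) stood highest and did not differ beyond their spread (SD, n = 4 each). Bnip3l (30.9 ± 2.37) and Egln1 (30.4 ± 1.26) followed and also did not differ, and then came P4ha1 (21.7 ± 1.06). Egln3 (11.6 ± 1.199), Arnt (11.4 ± 0.292) and Hif1a (10.996 ± 0.256) came next, above Vhl (5.41 ± 0.373) and Ankrd37 (2.23 ± 0.245). The spread of Egln3 took in the means of Arnt and Hif1a, while Hif1a lay a little below Arnt in each of the 4 control cultures.

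In conditioned medium the order changed. Vegfa (50.8 ± 2.60 CPM per kilobase) stood alone at the top, above Bnip3 (33.8 ± 1.33), Egln1 (28.6 ± 1.41), Bnip3l (24.7 ± 0.420) and P4ha1 (19.4 ± 0.744). Hif1a (11.5 ± 0.276) and Arnt (11.3 ± 0.298) were within each other's spread, with Hif1a above Arnt in 2 of 4 cultures. Egln3 (7.98 ± 0.313) now lay below both, ahead of Vhl (5.20 ± 0.121) and Ankrd37 (1.77 ± 0.382).

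Whether related genes changed by different amounts was asked for 3 pairs, using the log2 ratio of their counts in each culture, in which the library scaling cancels. Egln3 over Egln1 was -1.83 ± 0.149 in control and -2.27 ± 0.101 in conditioned medium (SD, n = 4 each). No culture overlapped, and the difference of -0.44 had an exact p of 0.0286 (two-sided exact permutation test), the smallest that 4 against 4 allows. Egln3 thus stood lower against its family member Egln1 in every conditioned culture than in any control culture.

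Bnip3 over Bnip3l went from -0.09 ± 0.129 to -0.32 ± 0.0571, a difference of -0.23 (exact permutation p = 0.0571). Control replicate 4, at -0.28, lay inside the conditioned range, and conditioned replicate 1, at -0.24, inside the control range. Hif1a over Arnt went from -0.50 ± 0.0216 to -0.42 ± 0.0722, a difference of 0.08 (exact permutation p = 0.0571), with conditioned replicate 1 inside the control range and control replicate 1 inside the conditioned range. After Benjamini-Hochberg adjustment over the 3 pairs each exact permutation p was 0.0571, so none passed 0.05. Leaving out control replicate 4 brought Bnip3 over Bnip3l and Egln3 over Egln1 together to an adjusted exact p of 0.0429, and leaving out conditioned replicate 1 did so for Egln3 over Egln1 and Hif1a over Arnt. That value needs a pair of ratios at the smallest exact p, so Egln3 over Egln1 passed there only beside another ratio.

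**Figure D3:**
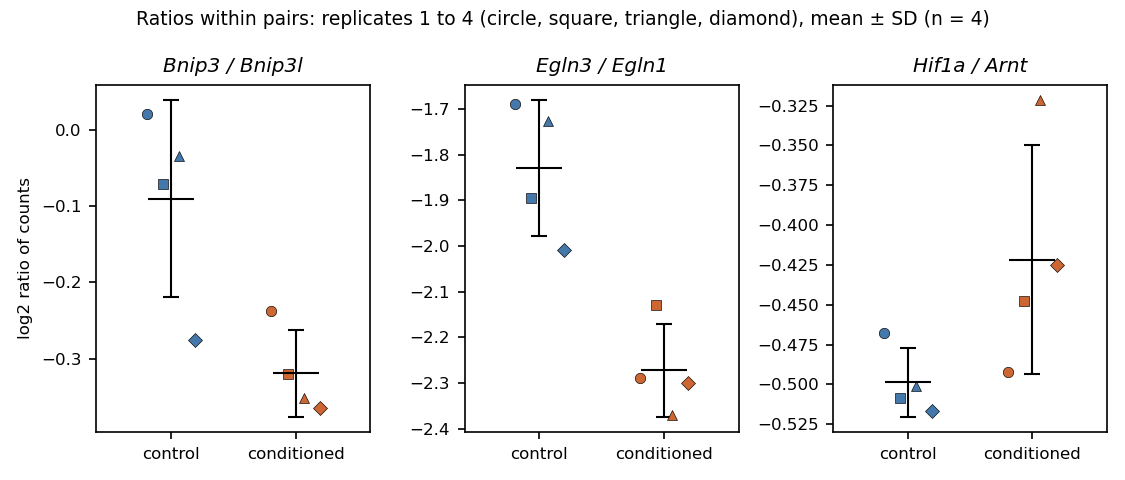
Log2 ratio of the counts of Bnip3 to Bnip3l, Egln3 to Egln1 and Hif1a to Arnt in each culture (vertical axes, a separate scale for each panel), with the mean ± SD of 4 cultures. Egln3 over Egln1 is lower in all conditioned cultures, while in each of the other pairs 1 culture of either medium lies in the range of the other.

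The rest of the pathway was followed through lists of named genes, also chosen with earlier results of these data known. Their called shares are therefore descriptive and not an independent comparison with all tested genes. Of 23 other HIF subunits and regulators, 20 were tested, of which 6 rose and 5 fell, or 55% called against 30.5% of all tested genes (median log2 fold change 0.04). The coactivators that HIF recruits rose together: Crebbp from 119 ± 7.17 to 150.5 ± 4.41 normalised CPM (log2 fold change 0.34, SE 0.04) and Ep300 from 182 ± 5.76 to 211 ± 3.99 (0.21, SE 0.03). Both encode histone acetyltransferases, with edgeR adjusted p of 3.16e-08 and 1.10e-06, and the media did not overlap in either gene.

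The other called regulators named by the size of their change encode parts of ubiquitin ligases. Siah1a, whose product targets EGLN proteins, rose by 0.30 on the log2 scale (SE 0.06, edgeR adjusted p = 0.000336). Its close copy Siah1b fell by 0.19 (SE 0.07, adjusted p = 0.04996), and that call was lost in 14 of 20 alternative settings, with adjusted p up to 0.172 on leaving out 1 culture. Reads of near-identical copies can be split between them, so both values are uncertain. Rbx1, the RING subunit of the VHL ligase, fell by 0.18 (SE 0.04, adjusted p = 0.000973). The remaining hydroxylase gene Egln2 and the asparagine hydroxylase gene Hif1an, named for their role after their values were seen, had log2 fold changes of -0.02 (SE 0.04) and 0.08 (SE 0.07) and were not called.

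Of 40 other HIF targets outside glycolysis, 31 were tested: 11 fell and 2 rose, or 41.9% called against 30.5% of all tested genes, with a median of -0.06. The 3 that fell most were Ak4, Fam162a and Higd1a. Ak4, a mitochondrial adenylate kinase, went from 8.17 ± 1.06 to 5.52 ± 0.550 normalised CPM (log2 fold change -0.56, SE 0.11, edgeR adjusted p = 0.000156). Fam162a, a mitochondrial protein, fell by 0.32 (SE 0.04) and Higd1a, which associates with the respiratory chain, by 0.25 (SE 0.06); 19.8% of the exons of Fam162a overlap Wdr5b.

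The 2 that rose changed more than any gene that fell in this list. Vldlr, a lipoprotein receptor, went from 15.4 ± 0.422 to 29.7 ± 1.27 normalised CPM (log2 fold change 0.94, SE 0.06, edgeR adjusted p = 1.44e-13). Hmox1, haem oxygenase, which is also a textbook target of the oxidative stress factor NRF2, went from 4.02 ± 0.295 to 6.46 ± 0.277 (0.67, SE 0.11, adjusted p = 1.61e-05). Another 9 genes of the list were too scarce to test, including the vascular peptide Adm (0 to 2 counts per culture), which was singled out after its values were seen.

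By comparison, 19 of 21 genes of glucose uptake, glycolysis and lactate export that HIF is known to induce were tested, and 15 fell and 1 rose (84.2% called against 30.5% of all tested genes, median -0.24). Slc16a3 (-0.73), Tpi1 (-0.63), Aldoa (-0.49), Pgk1 (-0.46) and Pfkl (-0.46) fell most on the log2 scale, each with no overlap between media. Bnip3 and Egln3 thus lay between Tpi1 and Aldoa in size, whereas the falls of Bnip3l and P4ha1 were smaller than those of the 5 genes. Several glycolytic genes have processed pseudogenes that can take reads, which was not examined. No test of the difference between the lists was made.

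**Figure D4:**
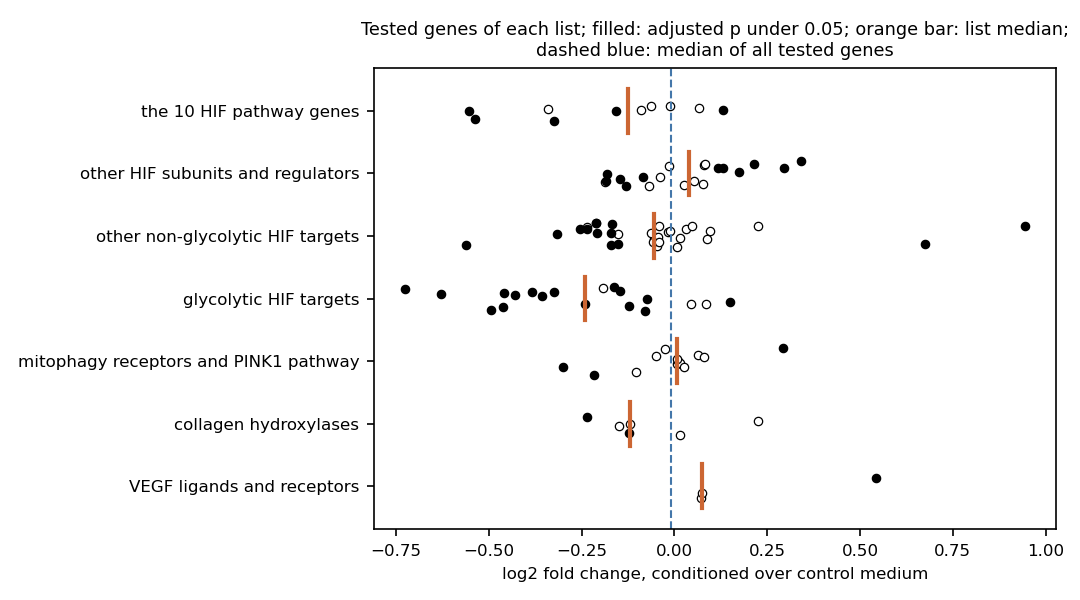
Log2 fold change (horizontal axis) of each tested gene of the 10 HIF pathway genes and of 6 related lists; filled points have an edgeR adjusted p under 0.05, orange bars mark list medians and the dashed line the median of all tested genes. The glycolytic list is centred lowest, at -0.24, and the other targets spread from -0.56 for Ak4 to 0.94 for Vldlr.

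Genes working beside the targets were followed in 3 further lists, whose called shares of 23.1% and 33.3% were near the 30.5% of all tested genes. Of 15 mitophagy receptors, PINK1 pathway genes and their ATG8 and BCL2 partners, 13 were tested, and 2 fell and 1 rose (23.1%). Nipsnap1 and Nipsnap2, mitochondrial proteins that mark damaged mitochondria, fell by 0.30 (SE 0.05) and 0.22 (SE 0.05) on the log2 scale. Bcl2, the survival factor that BNIP3 can bind, rose from 86.4 ± 2.82 to 106 ± 3.90 normalised CPM (0.29, SE 0.04, edgeR adjusted p = 1.52e-07). Map1lc3b, which lies inside the annotated span of Gm20388, was listed at 0 in all cultures, and whether its reads were assigned to another gene was not tested.

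Of 9 other collagen hydroxylase genes, 6 were tested and 2 fell (33.3%). They were Plod2, a lysyl hydroxylase (log2 fold change -0.23, SE 0.04), and P4hb (-0.12, SE 0.03), the subunit with which the P4ha1 product pairs. Their edgeR adjusted p were 6.66e-06 and 0.00582. P4ha2, Plod1 and Plod2 were also in the list of other targets outside glycolysis, so the fall of Plod2 was counted in both lists. The genes P4ha2 (2 to 13 counts per culture) and P4ha3 (0 to 2 counts), which encode the other catalytic subunits, were not tested.

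Among 9 other VEGF ligands and receptors, 3 were tested and 1 rose (33.3%). Pgf, placental growth factor, rose from 4.65 ± 0.577 to 6.78 ± 0.839 normalised CPM (log2 fold change 0.54, SE 0.12, edgeR adjusted p = 0.000517). Vegfb (0.07, SE 0.05) and Vegfc (0.07, SE 0.06) were not called. The receptor genes Flt1 and Flt4 had at most 1 count in any culture, and Kdr, Nrp1 and Nrp2 had 0 in all, so transcripts of the receptors were under the floor in every culture.

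The genes whose pattern over the 8 cultures was most like that of Egln3, the called gene with the smallest p, were Tacc3 (Pearson r = 0.989), Cope (0.981) and Sf3b5 (0.978). The correlations were computed on log2 CPM across 8 cultures that differ in medium, so they largely follow that contrast, and 44 genes had r above 0.95. Tacc3 fell from 178 to 146 normalised CPM (log2 fold change -0.28, edgeR adjusted p = 3.35e-08).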

How the data were processed

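RNA sequencing counts of 8 cultures were analysed. The deposited values are raw counts per Ensembl gene ID in a table of all samples; per the submitters' processing notes STAR 2.7.5a, featureCounts 2.0.1 and the build mm10 were used, and parameters, annotation release, strand setting and use of molecular barcodes were not given in the sources used here. All columns were matched to samples, with 0 left over. Symbols, positions and merged exon lengths came from GENCODE M21 on GRCm38 (mm10), which matched 21817 of 21859 IDs; of 181 list memberships 179 matched.

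Genes passing filterByExpr (10729) were scaled by TMM and tested with edgeR 4.0.16 (R 4.3.3; glmQLFit robust, glmQLFTest, medium as the term), with Benjamini-Hochberg adjustment over all of them and a threshold of 0.05. Normalised CPM are TMM-scaled. The SE is the absolute log2 fold change over the square root of F, and intervals use its t quantile. Precision follows the totals; these intervals include the spread between cultures, whereas detection floors cover counting error only. Tested on simulated counts (10662 genes), 6.54% of calls were false. Far fewer genes were changed there than were called in the data, so that share need not hold for the data.

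The 10 genes and the lists were chosen with earlier results of these data known. Named list genes were the up to 5 called genes of a list with the largest absolute change and a mean of at least 5 CPM, plus the 3 genes most correlated with the called gene of smallest p. Alternatives were DESeq2 1.42.0, limma-voom (limma 3.58.1), other scalings and filters, no robust estimation, the replicate block, thinning, stricter thresholds and leaving out each culture. Pair ratios were tested by exact permutation over 70 splits. Figures used Python 3.11.15 and matplotlib 3.10.9.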

Additional observations from a re-analysis of the deposited data

Results flagged for a closer look

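In groups of 4 cultures, the highest or lowest value was compared with the others by its gap over the group's range, and 5 of 74 groups passed the 95% critical value, where chance gives about 3.7. Vegfa was highest in conditioned replicate 4, at 234 normalised CPM against 211 to 214 in the others (ratio 0.860). Ankrd37 was lowest in control replicate 4, at 2.88 against 3.56 to 3.67 (0.860). For Siah1b, control replicate 2 had 15.6 and the other control cultures 13.9 to 14.1 (0.861). For Nipsnap1, control replicate 1 had 34.3 and its group otherwise 31.3 to 31.5 (0.938), while conditioned replicate 2 had 26.5 and its group otherwise 25.8 to 25.9 (0.933). Causes were not tested.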

How the results depend on the processing

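The number of the 10 genes called was 5 or 6 in 19 of 20 alternatives and 2 (Egln3 and Bnip3) in the test against a 1.2-fold change, which also called 227 genes in all and 7 in the related lists, against 3273 and 45 in the main analysis; the calls of Bnip3l, P4ha1 and Vegfa were lost there. An adjusted p under 0.01 called 2147 genes in all. Leaving out each culture gave 5 to 6 of the 10 genes, 2635 to 3578 genes in all and 39 to 45 in the lists. The log2 fold change of Arnt ran from -0.022 to 0.0071 on leaving out 1 culture, positive without control replicate 3 (0.0071) or conditioned replicate 3 (0.0067). The pair differences ran from -0.29 to -0.19 for Bnip3 over Bnip3l, -0.50 to -0.40 for Egln3 over Egln1 and 0.044 to 0.10 for Hif1a over Arnt. Directions of the other 9 genes held in every alternative run. Same-numbered cultures deviated together with correlations from -0.05 to 0.14, and 1 of 4 control cultures correlated best with its own number, so the numbers were not taken to pair them. With the replicate block 5 of the 10 genes and 3446 in all were called, Siah1b alone among the named genes lost its call, and sign flips within same-numbered cultures, which leave the pair differences as they are by construction, gave adjusted exact p of 0.1875, 0.1875 and 0.25 for the 3 ratios, where 4 such pairs cannot go below an exact p of 0.125. Depth limits Ankrd37, with 443 counts in total, and the genes under the filter.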

Other observations

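The cultures in control medium were more spread than those in conditioned medium for Egln3, Bnip3 and Bnip3l. In control medium the coefficient of variation of normalised CPM was 10.3% for Egln3, 9.57% for Bnip3 and 7.66% for Bnip3l, where counting alone would give 4.26%, 2.22% and 2.15%. In conditioned medium it was 3.93%, 3.93% and 1.70%, where counting alone would give 5.11%, 2.69% and 2.41%. Vhl, which did not pass the test, went the same way, with 6.91% in control and 2.33% in conditioned medium, and P4ha1 had 4.89% and 3.83%. Vegfa (3.64% and 5.12%), Egln1 (4.15% and 4.93%) and Ankrd37 (10.956% and 21.6%) were more spread in conditioned medium, and Hif1a (2.33% and 2.40%) and Arnt (2.56% and 2.63%) were nearly equal. Control cultures did not rank alike, since Egln3 was highest in replicate 1, Bnip3 and Bnip3l in replicate 2, and the lowest culture was replicate 4 for Egln3 and Bnip3 and replicate 3 for Bnip3l. The difference in spread was not tested.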
